A study of Mus musculus with 6 samples.

Results

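Counts listed under 9 genes of the TGF-beta and YAP response were followed in 3T3-L1 cells, fibroblasts of mouse embryonic origin, after treatment with extracellular vesicles (EVs). The genes were taken by symbol: Ccn1, Ccn2, Tgfbi, Thbs1, Ankrd1, Tgfb1, Ltbp1, Peg10 and Smad7. All 9 had a row in the count table, out of 23725 genes. In the EV group, 3 plates each received for 24 h a separate preparation of EVs from medium conditioned by MLP29 cells, a mouse liver progenitor line derived from 1 clone, on average 20 µg of EV protein. In the control group, 3 plates received for 24 h a preparation made by the same procedure from medium that no cells had conditioned. Both groups were kept in complete DMEM with HEPES whose own vesicles had been removed by centrifugation, and neither carried a genetic change according to the labels. The 3T3-L1 line is a preadipocyte line and stands in for fibroblasts here. The libraries were numbered 1, 2 and 3 in the control group and 1, 2 and 4 in the EV group.

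TGF-beta is secreted in a latent complex, bound to LTBP proteins that anchor it in the extracellular matrix, and is released by integrins, proteases or thrombospondin-1. Active ligand brings receptor kinases together, which phosphorylate SMAD transcription factors. These enter the nucleus and switch on genes of the matrix and of feedback. The coactivators YAP and TAZ are held back by the Hippo kinases and act with TEAD factors on genes such as Ccn1, Ccn2 and Ankrd1 when cells spread or pull on their matrix. In fibroblasts both routes are known for their part in matrix production and in the contractile myofibroblast state, and Ccn2 is a textbook target of both.

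The promoters of Ccn1 and Ankrd1 are shown first because they are the members whose windows held the core letters bound by TEAD factors. The windows are from RefSeq on GRCm38.p6, the assembly also named mm10, and run from 250 bases before the transcription start to 50 bases after it. Capitals mark matches on either strand to GGAATG, the TEAD core, or to CAGAC, a SMAD element. The window of Ccn1 is chr3:145649936-145650235 and that of Ankrd1 is chr19:36119795-36120094, both on the minus strand.
Ccn1: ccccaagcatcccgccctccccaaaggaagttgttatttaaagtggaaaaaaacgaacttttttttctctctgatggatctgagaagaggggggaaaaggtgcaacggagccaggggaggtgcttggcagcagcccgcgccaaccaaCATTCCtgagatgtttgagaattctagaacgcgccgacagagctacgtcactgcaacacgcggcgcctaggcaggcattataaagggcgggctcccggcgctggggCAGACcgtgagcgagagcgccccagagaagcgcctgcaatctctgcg
Ankrd1: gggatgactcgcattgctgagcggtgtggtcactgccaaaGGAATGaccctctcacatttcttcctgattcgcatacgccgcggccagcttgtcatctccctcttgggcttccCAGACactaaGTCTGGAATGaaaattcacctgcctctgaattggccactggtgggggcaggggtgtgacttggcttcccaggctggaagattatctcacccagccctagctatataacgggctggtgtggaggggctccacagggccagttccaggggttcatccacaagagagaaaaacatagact

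In the Ccn1 window the TEAD letters lie from base -103 to -98, in reverse orientation, and the SMAD letters from base 4 to 8 after the start. In the Ankrd1 window TEAD letters begin at -210 and at -123. One of the SMAD matches there, from -127 to -123, shares its last base with the second TEAD match, and the other lies from -137 to -133. Windows were found for 5 of the 9 members. Those of Tgfbi and Ltbp1 held SMAD letters without TEAD letters, and that of Tgfb1 held neither. Among all 32851 mouse windows of this length, 14.7% held the TEAD letters and 49.6% the SMAD letters, so that a match is a description of the letters and not of a bound site. The CArG box of serum response factor was found in 1.63% of all windows and in none of these members' windows.

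The library totals lay between 508599 and 665465 counts, and 8404 of the listed genes had no count in any library. These totals are what depth means here, since they are the counts assigned to genes and not the reads sequenced. The read yield named in the study's methods is far above these totals, and the reason for the gap was not tested. The library kit keeps the strand of the mRNA, and the authors' strand setting for counting is not given in the sources used here. Of the 100 genes with the most counts, 83 had a match in the GENCODE vM21 annotation, and 66 of these have an exon overlapped by an exon on the opposite strand. The share among matched genes in general was 24.8%. Each value below is therefore the count listed under a gene, and whether it comes from that gene's own strand was not tested. Of the 12 fibroblast markers, 10 had enough counts to be tested, while Lum and Fap had no count in any library. Of 14 markers of liver epithelial progenitors, the type of cell the EVs came from, 9 had no count in any library, among them Krt8, Krt18, Krt19, Epcam and Alb. Of 8 adipocyte markers, 4 had none, among them Adipoq and Plin1.

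Thbs1 and Ccn1 had lower counts in EV-treated cells, Ltbp1 showed no difference beyond the spread between replicates, and the other 6 members had too few counts for a test. Thbs1 encodes thrombospondin-1, a secreted matrix glycoprotein that can activate latent TGF-beta and is itself induced by it. Ccn1 encodes a matricellular protein that binds integrins. The test was edgeR's quasi-likelihood test, with the Benjamini-Hochberg adjustment over the 5066 genes that passed edgeR's filter on low counts. Over all of these, 1121 genes passed an adjusted p of 0.05, which is 22.1%, with 14.4% lower and 7.68% higher in the EV libraries. In 21.5% of the tested genes every EV library was under every control library in scaled counts, as it was for Thbs1 and Ccn1. Ccn1 entered the test only through its control libraries, so the number of members called is given as a description beside these percentages.

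**Figure D1:**
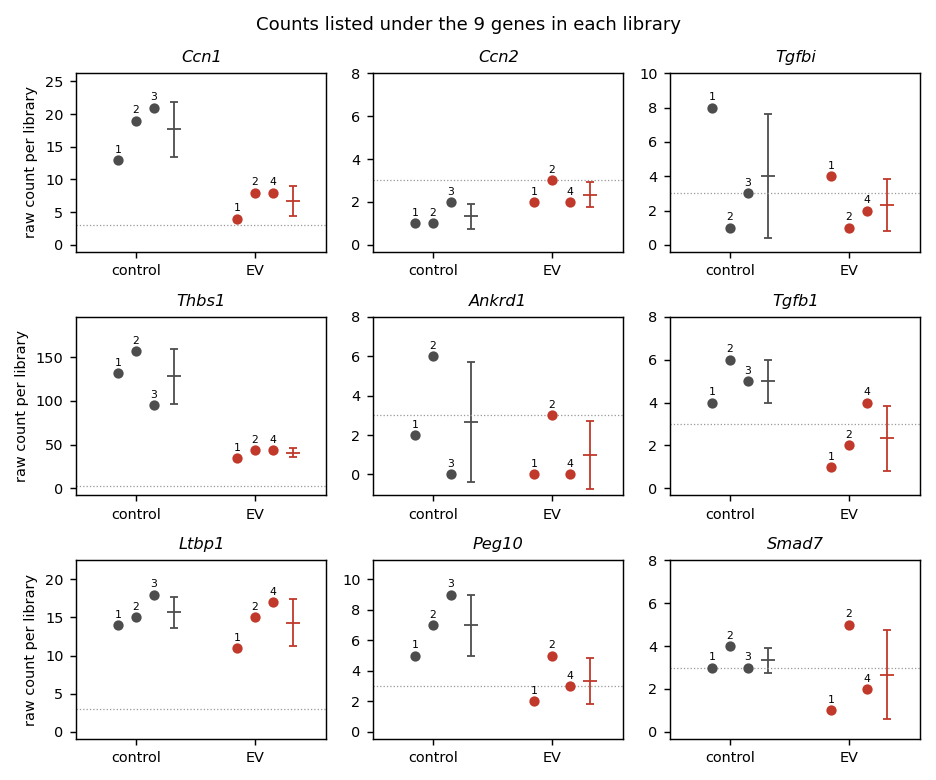
Raw counts listed under each of the 9 genes, by group. Points are libraries with their numbers, the bar beside them is the mean ± SD (n = 3), and the dotted line marks 3 counts. For Thbs1 and Ccn1 every EV library lies under every control library, and for the 6 genes that were not tested no library exceeds 9 counts.

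Tgfb1 encodes the ligand itself. The counts were 4, 6 and 5 in control libraries 1, 2 and 3, and 1, 2 and 4 in EV libraries 1, 2 and 4. EV library 4 reached the level of the lowest control library, and the groups overlapped. The summed counts were 15 and 7, an EV to control ratio of 0.537 after scaling, with a 95% exact interval from 0.185 to 1.40. This interval and the others given for sums cover counting error only. A difference was thus not detectable at this depth.

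Ltbp1 encodes the latent TGF-beta binding protein that holds the ligand in the matrix. Its counts were 14, 15 and 18 in control cells and 11, 15 and 17 after EV treatment. Apart from EV library 1, which was the lowest, the libraries of the groups lay among each other. As CPM, the count scaled to a common library total with edgeR's TMM factors, the level was 26.1 ± 1.88 (SD, n = 3) in control and 27.4 ± 4.76 (SD, n = 3) in EV libraries. The log2 fold change was 0.073, with a 95% interval from -0.55 to 0.70 (edgeR quasi-likelihood test, adjusted p = 0.888). Its sign turned in several settings, for example to -0.063 with scaling to total library size alone. The sister genes Ltbp2 and Ltbp3, which also encode matrix-bound LTBP proteins, had 45 to 85 and 110 to 134 counts per library. Neither passed the threshold, with log2 fold changes of -0.20 and 0.21, and Ltbp4 had at most 3 counts in any library.

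Thbs1 (Entrez 21825, chr2:118111876-118127133 of GRCm38, plus strand) had the largest counts of the 9 genes. They were 132, 157 and 95 in control libraries 1, 2 and 3, and 35, 44 and 44 in EV libraries 1, 2 and 4. The EV libraries were close to each other and all far under the control libraries, of which library 3 was the lowest. In normalized CPM the level was 216 ± 58.7 (SD, n = 3) in control and 78.6 ± 5.29 (SD, n = 3) in EV libraries. The log2 fold change was -1.44 (SE 0.18, edgeR quasi-likelihood test, adjusted p = 1.24e-08), which is 2.72-fold lower in EV-treated cells. Thbs1 fell in every setting in which it was fitted, with log2 fold changes between -1.72 and -1.33. The fall was deepest without control library 3 and shallowest without control library 2. A lincRNA, Gm29233, lies over 208 of the 6073 exon bases of Thbs1 (3.4%) on the opposite strand. The fit limited to genes without such an overlap therefore did not include Thbs1.

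Of the thrombospondin family, 2 of the 5 genes were tested, the member Thbs1 and Thbs2. Both were lower in the EV libraries, beside 14.4% of all genes tested. Thbs2 encodes a thrombospondin that lacks the sequence with which Thbs1 activates TGF-beta. Its counts were 66, 94 and 83 in control cells and 18, 36 and 44 after EV treatment. The groups did not overlap, and the log2 fold change was -1.11 (SE 0.20, edgeR quasi-likelihood test, adjusted p = 3.74e-05). Thbs2 has no exon overlapped on the opposite strand and passed the threshold in all 16 other settings. Thbs3 had 5 to 13 counts per library, Comp at most 3, and Thbs4 none.

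Smad7 encodes the inhibitory SMAD that shuts off the TGF-beta receptor and is an early target of the pathway. It had 3, 4 and 3 counts in control cells and 1, 5 and 2 after EV treatment. EV library 2 was the highest of all 6 and EV library 1 the lowest. The ratio of the summed counts was 0.920 (95% exact interval 0.316 to 2.59), so that the counts allow a change of either sign.

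Tgfbi and Ccn2 stand for the response downstream of SMADs. Tgfbi, whose name comes from its induction by TGF-beta, encodes a matrix protein that binds collagen and integrins. It had 8, 1 and 3 counts in control cells and 4, 1 and 2 after EV treatment. The spread within the control group, from 1 to 8, was wider than any difference between the groups, and the ratio of the sums was 0.671 (95% exact interval 0.224 to 1.85). Without control library 1 that ratio was 1.41.

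Ccn2, formerly Ctgf, encodes connective tissue growth factor. It had 1, 1 and 2 counts in control cells and 2, 3 and 2 after EV treatment. None of the 6 values exceeds the floor of 3 counts, and no fold change is given. A transcript on the opposite strand, Gm15270, covers 23.2% of its 2861 exon bases. In normalized CPM the EV libraries, at 3.84 to 5.28, were above the control libraries, at 1.63 to 3.12. These values stand for 1 to 3 counts, and a difference was not detectable at this level.

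Peg10 is an imprinted gene derived from a retrotransposon. It had 5, 7 and 9 counts in control cells and 2, 5 and 3 after EV treatment. In raw counts EV library 2 equalled control library 1, and in normalized CPM, with 8.81 in the first and 9.23 in the second, the groups did not overlap. The ratio of the sums was 0.548 (95% exact interval 0.230 to 1.22). The study chose Peg10 on these same libraries, so that its direction is not independent evidence.

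Ccn1 (Entrez 16007, chr3:145646971-145649985 of GRCm38, minus strand), formerly Cyr61, is the member whose promoter letters are given first above. It had 13, 19 and 21 counts in control libraries 1, 2 and 3, and 4, 8 and 8 in EV libraries 1, 2 and 4. Every EV library was under every control library, and the highest EV count was 8 against a lowest control count of 13. The normalized CPM were 29.2 ± 4.63 (SD, n = 3) and 12.6 ± 3.67 (SD, n = 3). The log2 fold change was -1.19 (SE 0.37, edgeR quasi-likelihood test, adjusted p = 0.0150), which is 2.28-fold lower. Because no EV library reached 10 counts, Ccn1 passed the filter on low counts only through the control libraries, and a gene that enters the test that way is already high in that group.

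The call for Ccn1 rested on few counts. Without the filter the adjusted p was 0.0586, without control library 2 it was 0.0572, and without EV library 1 it was 0.0640 (edgeR's quasi-likelihood test). The DESeq2 Wald test gave no adjusted p for it. The log2 fold change was below 0 in every setting in which the gene was fitted, and lay between -1.35 and -0.99. No exon of Ccn1 is overlapped on the opposite strand, and it passed the threshold in the fit of genes without such overlap (edgeR quasi-likelihood test, adjusted p = 0.0420). These settings are set beside those of Thbs1 and Ltbp1 in the plot of settings.

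**Figure D2:**
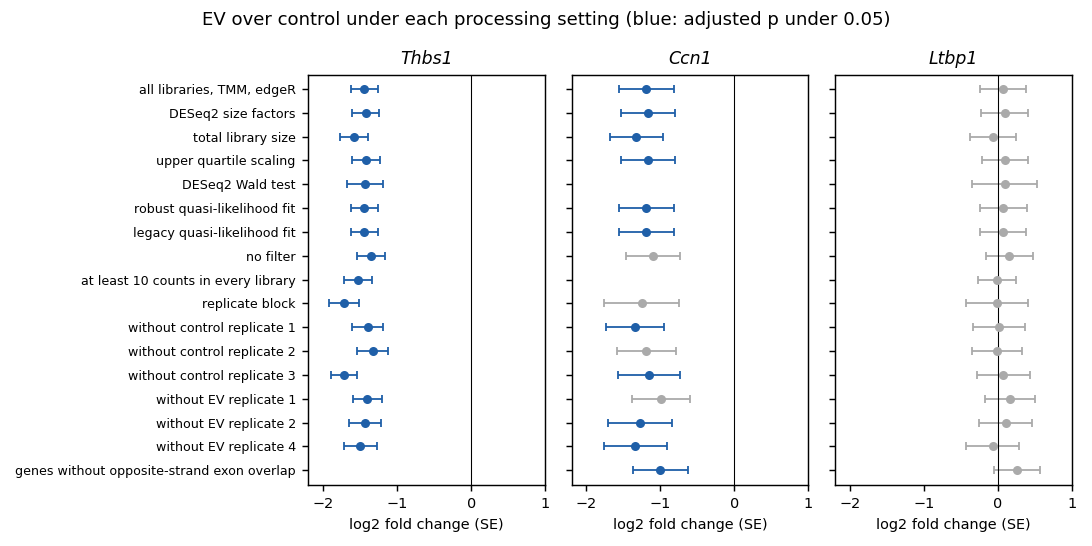
Log2 fold change, EV over control, of Thbs1, Ccn1 and Ltbp1 (points, bars are standard errors) under each processing setting; blue marks an adjusted p under 0.05. Thbs1 stays between -1.72 and -1.33 and is blue wherever it was fitted, Ccn1 is grey in 4 settings, and Ltbp1 lies around 0.

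Ankrd1, the other member with TEAD letters in its window, encodes a cardiac ankyrin repeat protein widely read as a YAP target. It had 2, 6 and 0 counts in control libraries 1, 2 and 3, and 0, 3 and 0 in EV libraries 1, 2 and 4. Library 2 was the highest in both groups, and 3 of the 6 libraries had no count. The ratio of the sums, 8 against 3, was 0.431 (95% exact interval 0.0737 to 1.80). It was 0 without EV library 2 and 1.13 without control library 2. A count of 0 allows up to 3 counts in a library, which spans most of the observed values.

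The CCN family holds 6 genes, of which 3 were tested. Beside Ccn1 these were Ccn4, with 9 to 19 counts per library, and Ccn6, with 12 to 22. Their log2 fold changes were -0.31 and 0.14, and neither passed the threshold. Ccn6 has 34.0% of its exon bases overlapped on the opposite strand. Ccn5 was not tested, with 9, 17 and 14 counts in control cells and 4, 9 and 8 after EV treatment. In normalized CPM its EV libraries were all under its control libraries. Its ratio of the sums was 0.604 (exact interval 0.338 to 1.05), which allows a change of either sign. Ccn3 had at most 4 counts, and Ccn2, reported above, at most 3. Among the 3 tested genes Ccn1 was thus the one past the threshold, and the difference between it and the rest of the family was not tested.

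Between genes, levels can be compared only per length, here as counts per kilobase of exon, scaled as CPM to the library total. Thbs1 stood first, with 40.3, 42.2 and 23.5 in control cells and 11.3, 11.5 and 12.7 after EV treatment. Ccn1 followed, with 11.9, 15.4 and 15.6 in control cells and 3.90, 6.30 and 6.95 after EV treatment. Thbs1 was above Ccn1 in every library, and their ranges were apart within each group. Every library of Ccn1 was above every library of Ltbp1, which had 2.02 to 2.79. Below Ltbp1 the order in control cells was Tgfbi, Peg10, Tgfb1, Ankrd1, Smad7 and Ccn2, with means from 1.85 down to 0.756. After EV treatment it was Ccn2, Tgfbi, Smad7, Peg10, Tgfb1 and Ankrd1, with means from 1.42 down to 0.551. Among these 6 genes the ranges of neighbours overlapped in both groups. Over the 14278 genes with a count and a length, the median of the mean level in all 6 libraries was 1.67. By that mean Thbs1 lay at percentile 90.1 of these genes, Ccn1 at 82.2 and Ankrd1 at 39.4.

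Together the 9 genes took 156 to 216 counts of a control library and 60 to 86 of an EV library. Thbs1 made up 60.9% to 72.7% of this sum in control libraries and 51.2% to 58.3% in EV libraries. The sum of the 9 is therefore mostly a reading of Thbs1. Without it the sums were 50, 59 and 61 in control cells and 25, 42 and 38 after EV treatment.

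The other genes of the pathways were read from lists of ligands, receptors, SMADs, Hippo components and target genes, which together with the CCN and thrombospondin families hold 122 genes. Peg10 is in none of these lists. Of these 55 were tested, 17 were lower and 1 was higher in the EV libraries, beside 14.4% lower and 7.68% higher over all genes tested. Their median log2 fold change was -0.48, against 0.014 over all genes tested, and 43 of the 55 were below 0 against 48.8% of all genes tested. Without the members, 15 of 52 tested genes were lower, 1 was higher, and the median was -0.43. The 17 include Ccn1 and Junb, and the 15 include Junb. Both of these genes passed the filter on low counts only through the control libraries.

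**Figure D3:**
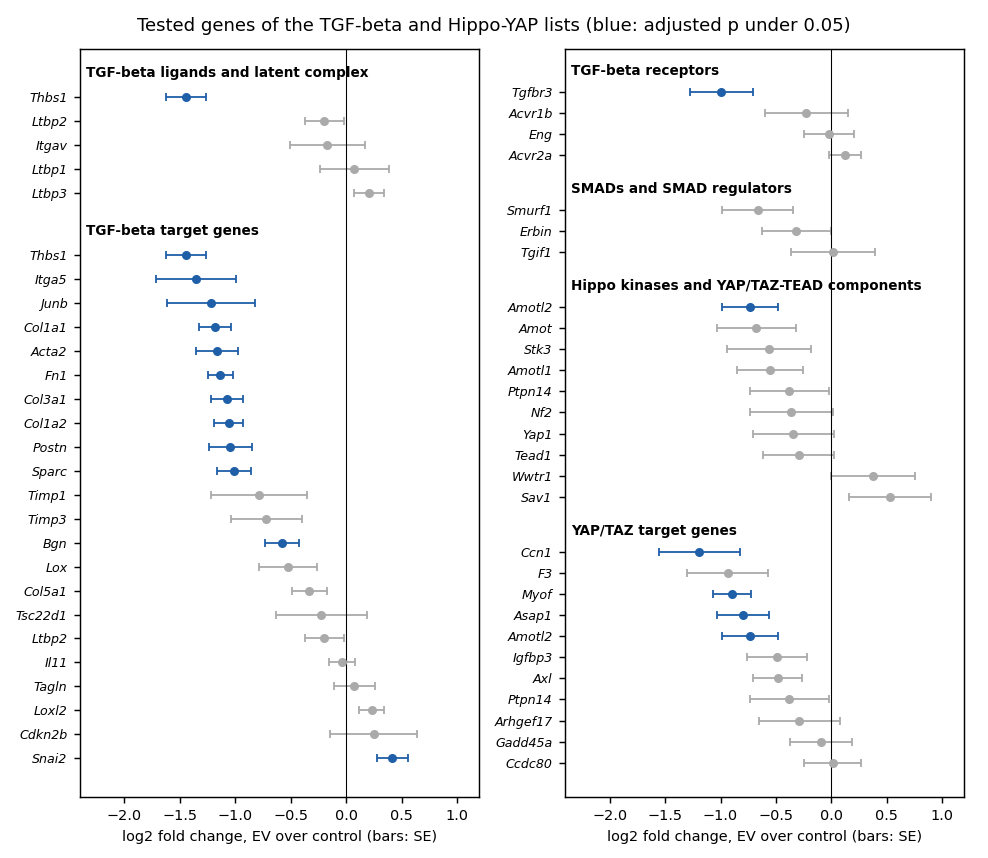
Log2 fold change, EV over control, of tested genes of each pathway list (points, bars are standard errors); blue marks an adjusted p under 0.05 over all genes tested. Most blue points are in the lists of target genes and lie near -1, while most receptors, SMADs and Hippo components are grey.

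In the list of TGF-beta target genes, 23 of 39 could be tested. Of these 11 were lower and 1 higher in the EV libraries, beside 14.4% lower and 7.68% higher over all genes tested. The median log2 fold change was -0.74, against 0.014 over all genes tested. Without the members, 10 of 22 tested genes of the list were lower, 1 was higher, and the median was -0.73. The counts listed under Fn1, which encodes fibronectin, were 391, 440 and 391 in control cells and 134, 177 and 174 after EV treatment. Its log2 fold change was -1.14 (edgeR quasi-likelihood test, adjusted p = 1.73e-11). A small part of its exon bases is overlapped on the opposite strand. Col1a1 and Col1a2, the chains of type I collagen, had log2 fold changes of -1.18 and -1.06. The other genes of the list that were lower were the member Thbs1, reported above, and Postn, Acta2, Col3a1, Sparc, Bgn, Itga5 and Junb. Of these Junb, like Ccn1, passed the filter only through the control libraries. Most of the others encode proteins of the matrix, Acta2 the actin of smooth muscle and Itga5 a subunit of the fibronectin receptor. Col1a1, Col1a2, Col3a1, Postn, Acta2, Sparc and Fn1 passed the threshold in every other setting in which they were fitted. Bgn did not without control library 2, without the filter or among genes without opposite-strand overlap. Itga5 did not without control library 2, without EV library 4 or in the DESeq2 Wald test, and its groups overlapped in normalized CPM. Junb did not without control library 1, without EV library 2, without the filter or in the DESeq2 Wald test.

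Not all targets with many counts moved in that direction. Snai2, a transcription factor of epithelial-mesenchymal transition, had 84, 118 and 113 counts in control cells and 114, 128 and 123 after EV treatment. It was higher in the EV libraries in normalized CPM, with a log2 fold change of 0.42 (edgeR quasi-likelihood test, adjusted p = 0.0247). The call for Snai2 held in 7 of 16 other settings, and with scaling to total library size alone it came to 0.28 on the log2 scale (edgeR quasi-likelihood test, adjusted p = 0.149). It was also not past the threshold without any one of the control libraries, EV library 1 or EV library 4. Loxl2, a collagen cross-linking enzyme, had 228 to 276 counts per library, and Il11, a cytokine of fibroblasts, had 178 to 242. Neither passed the threshold, with log2 fold changes of 0.23 and -0.039. Tagln, with 44 to 65 counts per library, did not pass it either, with a log2 fold change of 0.075. Of its exon bases 67.9% are overlapped on the opposite strand.

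In the list of YAP/TAZ target genes, 11 of 22 could be tested, and 4 were lower in the EV libraries, where 14.4% of all tested genes were. They were Ccn1, Myof, Asap1 and Amotl2, and the median of the list was -0.49. Of these Ccn1 passed the filter on low counts only through its control libraries. Without the members, 3 of 10 tested genes of the list were lower, and the median was -0.49. Myof, which encodes the membrane repair protein myoferlin, had 97, 121 and 99 counts in control cells and 36, 58 and 54 after EV treatment, a log2 fold change of -0.90 (edgeR quasi-likelihood test, adjusted p = 7.26e-05). Asap1, a regulator of ARF proteins and the cytoskeleton, had 42, 43 and 41 counts against 17, 23 and 23. Amotl2, an angiomotin that binds YAP and is also its target, had 28, 39 and 46 counts against 10, 28 and 21. In Ccn1, Myof, Asap1 and Amotl2 the groups did not overlap in normalized CPM. Myof passed the threshold in all 16 other settings, Asap1 in 13 and Amotl2 in 8. The calls lost for Amotl2 included those without control library 2 or 3 and without EV library 1 or 4. The count of 4 in this list was 1 in the DESeq2 Wald test and without the filter on low counts.

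The lists upstream of the targets had few tested genes each, to be read beside the 22.1% of all tested genes that were called. Of 5 tested genes of ligands and the latent complex, Thbs1 was the one past the threshold. Of 10 receptors and coreceptors 4 were tested, and Tgfbr3 was lower. It encodes betaglycan, which presents ligand to the signaling receptors, and had 25, 38 and 29 counts in control cells and 14, 10 and 16 after EV treatment (log2 fold change -0.99, edgeR quasi-likelihood test, adjusted p = 0.00868). It passed the threshold in 13 of 16 other settings, and did not without control library 2 or EV library 2 or in the DESeq2 Wald test. Acvr2a and Eng, the genes of this list with the highest mean counts, did not pass the threshold, with log2 fold changes of 0.12 and -0.019. The signaling receptors Tgfbr1 and Tgfbr2 stayed at 12 counts or fewer in every library and could not be tested. Of 18 SMADs and SMAD regulators only Smurf1, Erbin and Tgif1 were tested, and none passed the threshold in edgeR's quasi-likelihood test. Of these 3, only Smurf1 (25, 26 and 13 against 8, 14 and 13 counts) had an unadjusted p under 0.05, and the DESeq2 Wald test called 0 of them. Without control library 3 Smurf1, a ubiquitin ligase that acts on SMADs and receptors, passed the threshold, with a log2 fold change of -1.03 in place of -0.67 (edgeR quasi-likelihood test, adjusted p = 0.0184). Of 22 Hippo kinases and YAP/TAZ-TEAD components 10 were tested, and Amotl2 was the one lower, with a log2 fold change of -0.73 (adjusted p = 0.0309 from the same test). Yap1 and Wwtr1, the genes of YAP and TAZ, had 6 to 14 and 5 to 16 counts per library, and log2 fold changes of -0.34 and 0.38 that did not pass the threshold.

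The mean profile of Thbs1, Ccn1 and Ltbp1 over the 6 libraries, in centred log2 normalized CPM, was set beside those of the 3203 other tested genes with a mean count of at least 20. The 5 nearest by root mean square difference were Calr, Ybx1, Hspg2, Nid1 and Eif4g2. Their distances were between 0.050 and 0.071 on the log2 scale, and their own log2 fold changes between -0.86 and -0.74. Calr had 358, 482 and 404 counts in control cells and 150, 217 and 229 after EV treatment. The mean combines Thbs1 and Ccn1, which were lower, with Ltbp1, which was not, so the likeness is to this mean and not to any single member. This likeness is a description over 6 libraries that share their scaling factors.

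Some measures of the libraries moved with these results. The 100 tested genes of highest level had 0.26 as the median log2 fold change, and 4 of them lay below 0, while the 1329 genes within 2-fold of the level of Thbs1 had a median of 0.12. Within those 1329, 8 genes had a lower log2 fold change than Thbs1. Of the 2066 tested genes with an exon overlapped on the opposite strand 9.49% were lower and 12.4% higher in the EV libraries, and of the 2629 without one 19.9% were lower and 2.59% higher. Among the tested pathway genes, 14 of the 37 without such an overlap and 3 of the 18 with one were lower. With scaling to total library size alone the median of all genes moved from 0.014 to -0.12, the share of called genes that were lower moved from 65.3% to 91.5%, and Thbs1 and Ccn1 had log2 fold changes of -1.58 and -1.33. The part of these measures in the results was not tested. Fewer cells of a kind and less RNA per cell cannot be told apart in such bulk libraries.

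**Figure D4:**
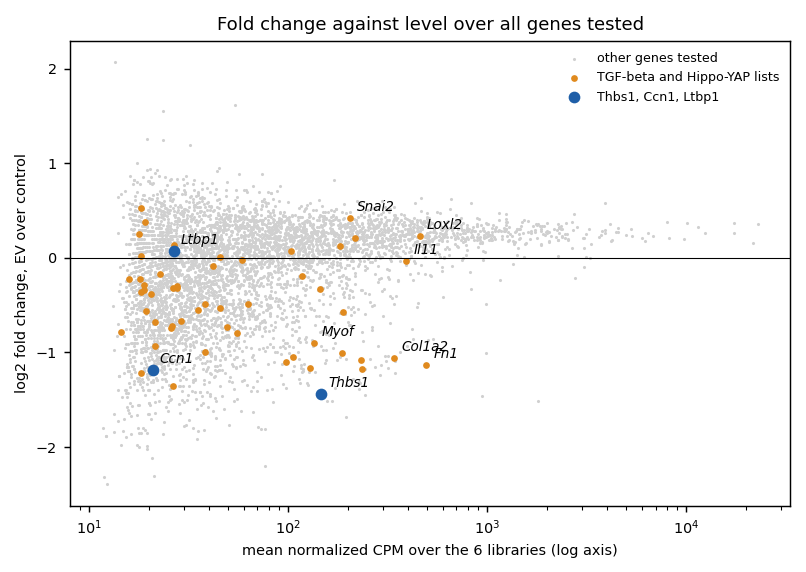
Log2 fold change, EV over control, against mean normalized CPM (log axis) for the 5066 genes tested. Grey points are other genes, orange points genes of the pathway lists and blue points the 3 members tested; Thbs1, at -1.44, lies near the lower edge of the genes of its level, and Ltbp1 lies at 0.073.

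Most fibroblast markers that were tested moved with the target genes. Of the 10 tested 7 were lower in the EV libraries, beside 14.4% of all genes tested, and the median log2 fold change was -1.07. Pdgfra, Pdgfrb and Thy1 did not pass the threshold, with log2 fold changes of -0.16, -0.70 and -0.54. Of the 12 markers, Col1a1, Col1a2 and Col3a1 are also in the list of TGF-beta target genes. The summed level of the 12 markers was 1791 to 2145 normalized CPM in control libraries and 776 to 1041 in EV libraries. The part of this in the counts of Thbs1 and Ccn1 was not tested.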

How the data were processed

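Per the methods, reads passed a FastQC check, were mapped on mm10 by STAR and were assigned to genes by Rsubread. The authors deposited the resulting raw count of each gene and library, not normalized, by Entrez identifier. Tool versions, the annotation release and the handling of multi-mapping reads are not given in the sources used here. DESeq2 is named for the study's own comparison.

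Groups came from the sample titles. Counts were fitted in R 4.3.3 by the quasi-likelihood functions of edgeR 4.0.16 (glmQLFit with legacy off and glmQLFTest after filterByExpr and TMM), without covariates, with Benjamini-Hochberg adjustment over 5066 genes and a threshold of 0.05. The biological coefficient of variation was 0.0779. Standard errors (SE) were derived from the fold change and its F statistic. Groups were said not to overlap in TMM-scaled CPM. Members that did not pass the filter were described by the ratio of summed counts with a 95% exact (Clopper-Pearson) interval, and genes at 3 counts or fewer in every library got no fold change. With 3 libraries a group, an exact permutation test of a single gene cannot go below 0.10 and was not used.

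Symbols and coordinates came from RefSeq on GRCm38.p6, exon lengths and overlaps from GENCODE vM21. Library pairs within a group differed beyond sampling noise (chi-square per degree of freedom 1.15 to 1.76), and none was counted as a duplicate. The fits were tested on simulated data. Alternatives were other scalings, the Wald test of DESeq2 1.42.0, other filters, a robust and a legacy fit (the latter chosen after seeing the data), a replicate block, genes without opposite-strand overlap, and each library left out.

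The members and lists were chosen with earlier results of these data known. Genes named were the members, their families, the 5 nearest profiles and opposite-strand partners. Each list added up to 4 genes of lowest adjusted p in each direction with groups not overlapping, and up to 3 of highest mean count. Of those chosen by mean count, Axl, Amotl1, Tead1, Cebpa, Sox9 and Krt7 are not described here. Postn, Acta2, Tagln, Sparc, Bgn, Itga5, Junb, Tgfbr1, Tgfbr2, Yap1, Wwtr1, Pdgfra, Pdgfrb and Thy1 were named after their values were seen. In the list of TGF-beta target genes, 1 tested gene is counted but is not reported or plotted by name here.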

Additional observations from a re-analysis of the deposited data

How the results depend on the processing

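The count of genes past the threshold, 1121 in all libraries, was 539 in the DESeq2 Wald test, 632 with at least 10 counts in every library and 555 among genes without opposite-strand overlap, where fewer genes were tested. When single libraries were left out the count lay between 496 and 1120. The number of members past it, 2, was 1 in the DESeq2 Wald test, without the filter, with at least 10 counts in every library, among genes without opposite-strand overlap and with the replicate block, and 1 or 2 with a library left out. Thbs1 passed in every fit it entered, and Ccn1 did not without the filter (adjusted p = 0.0586), with the block, without control library 2 (0.0572) or without EV library 1 (0.0640, edgeR's quasi-likelihood test). The number of YAP/TAZ targets past it, 4 of 11 tested, was 1 in the DESeq2 Wald test, 1 without the filter and 2 with the block. It was 2 of 9 tested among genes without opposite-strand overlap, and lay between 2 and 5 with a library left out. For TGF-beta targets, 12 of 23 tested in all libraries, it was 8 of 14 tested among genes without opposite-strand overlap. It lay between 9 and 12 with a library left out. Ltbp1 turned from 0.073 to -0.063 with the total library size, -0.0094 with at least 10 counts in every library, -0.0063 with the block, -0.013 without control library 2 and -0.066 without EV library 4. With a library left out it lay between -0.066 and 0.17. Of the 2 members called, Ccn1 was not in the fit with at least 10 counts in every library. It had no adjusted p in the DESeq2 Wald test, and Thbs1 was not in the fit without opposite-strand overlap. For the other changes the cause was not tested, also where fewer genes entered. Asap1, Amotl2 and Bgn did enter the fit of genes without opposite-strand overlap and did not pass the threshold there. Of genes past the threshold, 65.3% were lower, 91.5% with the total library size, 54.5% in the DESeq2 Wald test, 77.1% with at least 10 counts in every library and 61.4% to 84.7% with a library left out.

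The groups share the numbers 1 and 2 only, and the deviations of libraries with the same number correlated at 0.069 and 0.061 across genes, so the numbers were not taken as pairs. With the replicate number as a block 1119 genes passed the threshold, Thbs1 had a log2 fold change of -1.72, and Ccn1 had -1.25 and an adjusted p of 0.0545 from edgeR's quasi-likelihood test. Smurf1 passed the threshold under the block. Libraries numbered 3 and 4 have no partner there and add nothing to the difference. At library totals of 508599 to 665465 counts, 6 of the 9 members could not be tested.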

Other observations

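Of the marker lists, the liver epithelial and adipocyte lists had 1 tested gene each. Spp1, the gene of osteopontin, a secreted phosphoprotein of matrix and bone, is in the liver epithelial list and is also made by other cell types. It had 17, 45 and 39 counts in control cells and 7, 9 and 7 after EV treatment, and its log2 fold change was -1.91 (SE 0.33, edgeR quasi-likelihood test, adjusted p = 1.49e-05). Every EV library was under every control library. No EV library reached 10 counts, so Spp1, like Ccn1, passed the filter on low counts only through the control libraries. Lpl, the lipoprotein lipase gene, had 108, 158 and 149 counts in control cells and 76, 101 and 97 after EV treatment, for a log2 fold change of -0.40 (adjusted p = 0.0366 from the same test). Fabp4, a fatty acid binding protein of adipocytes, had 3, 5 and 4 counts against 1 in each EV library and was not tested. Vim, the intermediate filament of fibroblasts, had 183, 202 and 197 counts in control cells and 55, 87 and 81 after EV treatment, for a log2 fold change of -1.18 (adjusted p = 2.54e-09 from the same test).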
